A study of Mus musculus with 26 samples.

Results

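The genes described are 33 mouse genes of sterol and fatty acid synthesis, taken as a list of symbols: enzymes of the mevalonate arm and of the steps from squalene to cholesterol, regulators of sterol sensing, genes of sterol transport and oxysterol formation, and enzymes that make and desaturate fatty acids. Of the 33, 32 had a probe set assigned to that gene alone, and the probe set with the highest mean over all arrays stands for each gene. Acat2, which codes for the cytosolic thiolase at the start of the mevalonate arm, was not measured here. All 32 passed the filter on low signals, among 13018 genes tested of 18193 with a single-gene probe set.

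The cells were immortalized mouse embryonic fibroblasts of 3 parental lines, called WA, WB and WC, each infected with a retroviral vector. The vectors carried v-src, a viral oncogene that codes for a tyrosine kinase, or human c-myc, a transcription factor oncogene, and the control was the empty pBabe-puro vector. There were 3 arrays per line and vector, but 2 for WB with v-src, whose replicate 1 was not analysed here. The series was collected to test an expression signature of growth without anchorage. All cells carry a vector and come from immortalized lines, so no group is uninfected or primary, and the labels do not say whether an infected population is 1 clone or a pool. A free-text description attached to the samples speaks of embryos and was not used. The labels name no separate cultures or infections within a line and vector, so the response of a line and the state of the culture or cultures sampled cannot be told apart.

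Cells build cholesterol from acetyl-CoA through mevalonate, farnesyl diphosphate, squalene and lanosterol, and they build fatty acids from the same acetyl-CoA. When membranes run short of sterol, SCAP carries the membrane-bound SREBP transcription factors from the endoplasmic reticulum to the Golgi, where they are cut and released to switch on most genes of both pathways. INSIG proteins hold SCAP back when sterol is plentiful. SREBP binds sterol elements and some E-boxes beside NF-Y and Sp1. MYC binds E-boxes and is known to raise many genes of biosynthesis.

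Promoter windows of 300 bases, 250 before and 50 after the annotated start, were available from RefSeq (mouse assembly GRCm38.p6) for 26 of the 33 genes. They are shown for 4 genes the results turn on, because SREBP and MYC are known to act through such elements: the mevalonate arm enzymes Hmgcs1 and Idi1, the sterol sensor Insig1 and the fatty acid synthase Fasn. Capitals mark matches on either strand to the sterol element TCACNCCAC, the E-box CACGTG and the NF-Y box CCAAT, and the other letters are lower case. Hmgcs1 lies on the plus strand at chr13:119690101-119690400, Idi1 on the plus strand at chr13:8885356-8885655, Insig1 on the plus strand at chr5:28071162-28071461 and Fasn on the minus strand at chr11:120824498-120824797.
Hmgcs1: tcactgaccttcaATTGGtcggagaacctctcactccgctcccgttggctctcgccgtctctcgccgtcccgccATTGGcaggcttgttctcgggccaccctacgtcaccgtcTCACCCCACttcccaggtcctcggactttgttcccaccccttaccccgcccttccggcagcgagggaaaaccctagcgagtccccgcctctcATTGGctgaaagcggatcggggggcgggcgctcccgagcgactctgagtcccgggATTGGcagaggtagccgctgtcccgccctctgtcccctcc
Idi1: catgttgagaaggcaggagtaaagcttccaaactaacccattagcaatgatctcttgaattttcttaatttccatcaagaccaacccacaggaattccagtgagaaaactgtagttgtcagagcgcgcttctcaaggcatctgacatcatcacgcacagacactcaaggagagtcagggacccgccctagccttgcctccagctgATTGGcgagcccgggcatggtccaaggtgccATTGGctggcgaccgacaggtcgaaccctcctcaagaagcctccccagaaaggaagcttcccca
Insig1: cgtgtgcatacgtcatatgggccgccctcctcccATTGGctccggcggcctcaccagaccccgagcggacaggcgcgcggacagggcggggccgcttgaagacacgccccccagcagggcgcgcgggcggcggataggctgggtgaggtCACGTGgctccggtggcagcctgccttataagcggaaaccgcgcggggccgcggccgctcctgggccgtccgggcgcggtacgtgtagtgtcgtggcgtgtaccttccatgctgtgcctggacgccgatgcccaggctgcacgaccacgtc
Fasn: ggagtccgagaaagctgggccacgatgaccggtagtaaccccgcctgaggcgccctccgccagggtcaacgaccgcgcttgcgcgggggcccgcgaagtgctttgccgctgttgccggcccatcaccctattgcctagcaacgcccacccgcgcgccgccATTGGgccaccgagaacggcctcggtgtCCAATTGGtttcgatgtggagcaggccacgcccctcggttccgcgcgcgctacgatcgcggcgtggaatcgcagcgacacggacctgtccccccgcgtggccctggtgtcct
The sterol element was found in 1 of the 26 genes, Hmgcs1, as TCACCCCAC, 137 bases before the start, a share of 3.85% against 1.44% of 27025 genes. The E-box was found in 6 of 26 genes (23.08%, against 8.09% of all genes). The NF-Y box was found in 19 of 26 (73.08%, against 41.06%), among them Hmgcs1 with 4 matches, Fasn with 3, of which 2 overlap each other, and Idi1 with 2, and Insig1 holds both an E-box and an NF-Y box. These are descriptions of letters in a window; they do not show a bound site, and the lack of a match says only that these letters are not in this window. The window is fixed at the annotated start, so elements farther away were not searched.

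Signals were deposited MAS5 intensities with the same trimmed mean of 500 on every array, with array medians between 89.0 and 135. The number of arrays limits the precision. Across genes, r was 0.960 to 0.983 within a line and vector and 0.863 to 0.959 between groups. In these RNA extracts, fewer cells of a kind and less RNA per cell cannot be told apart. All 13 fibroblast markers passed the filter, with summed signals between 96897 and 173457 over all arrays. Their sum was 97791 to 126954 with v-src, 96897 to 116003 with c-myc and 112230 to 173457 with the empty vector, and its part in the results below was not tested. Macrophage markers summed to 762 to 1714 and 6 of 10 passed the filter. Epithelial markers, of which Epcam was highest, summed to 819 to 6312 (6 of 7 passed the filter). Their sum was 1561 to 6312 with v-src, 819 to 4272 with c-myc and 1026 to 3152 with the empty vector. It also varied within a group, from 2179 to 6271 among WA v-src arrays. Endothelial markers summed to 225 to 621 (3 of 5 passed the filter). The part of these markers was not tested either. Of the 11 adipocyte markers, 9 had a probe set, with sums of 660.3 to 3785, and 4 passed the filter. Adipoq, an adipocyte hormone, averaged at most 34.1, and Fabp4, a fatty acid carrier, averaged 1954 in WB v-src cells against 106 in WB empty-vector cells. The mouse Myc probe set, a check of the labels that may not detect human c-myc, was lower in c-myc cells, with a log2 change of -2.66. Src changed by 0.30 with v-src and was not called, and its probe set may not detect v-src.

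Over the 3 lines, few of these genes were called. Here and below a change is on the log2(signal + 23) scale, a gene is called at an adjusted p under 0.05 from limma over all 13018 genes, and n = 3 lines for values over the lines. With v-src, 1 of 32 rose (Fdft1) and none fell, against 6.64% higher and 6.79% lower among all genes. With c-myc, 3 of 32 rose (Idi1, Acly and Fasn) and none fell, against 10% higher and 9.76% lower among all genes. The median of the 32 changes was 0.11 with v-src, against 0.02 for all genes, and 0.25 with c-myc, against 0.04.

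Within the lines more genes were called, and the counts differed between lines. In WA, c-myc raised 23 of the 32 genes and lowered 1, against 19% higher and 18.5% lower among all genes. In WB, c-myc raised 20 and lowered none, against 12.5% higher and 14.5% lower. In WC, c-myc raised 4 and lowered 9, against 18.6% higher and 18.6% lower. The WC total of 13 was 8 without WC empty replicate 1, and 20 (3 higher, 17 lower) without 2 arrays chosen after seeing the data because they stood apart, WA empty replicate 3 by its median signal and WC c-myc replicate 1 by its correlation with its group. The median change with c-myc was 0.61 (WA), 0.44 (WB) and -0.18 (WC), against 0.06, 0.03 and 0.02 for all genes. These tests use arrays of one line and vector as replicates; the labels do not say that they are separate cultures, so such p-values reflect only how far arrays scatter, which may be technical.

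With v-src, the counts also differed between lines. In WA, v-src raised 5 of 32 genes and lowered 2, against 13.2% higher and 14.1% lower among all genes. In WB it raised 18 and lowered 2, against 12% and 13.5%. In WC it raised 5 and lowered 8, against 13.8% and 15.1%. The WA total of 7 was 11 without WC c-myc replicate 1 or 3, which enter through the shared estimate of the spread, and the WB total of 20 was 13 without WB v-src replicate 3. The median change was 0.14 (WA), 0.42 (WB) and -0.17 (WC), against 0.03, 0.02 and -0.02 for all genes. An F test of the difference between lines called 15 of 32 genes for v-src, against 13.5% of all genes, and 23 of 32 for c-myc, against 16.2%. Leaving out some single array ended 1, 8 and 7 of the v-src calls in WA, WB and WC, and 4, 4 and 5 of the c-myc calls. Taking the mean of all probe sets of a gene ended 3, 9 and 6 of the v-src calls and 4, 4 and 2 of the c-myc calls, in the same order of lines. The v-src and c-myc values of a line share their empty-vector arrays, so their likeness is not a separate result.

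**Figure D1:**
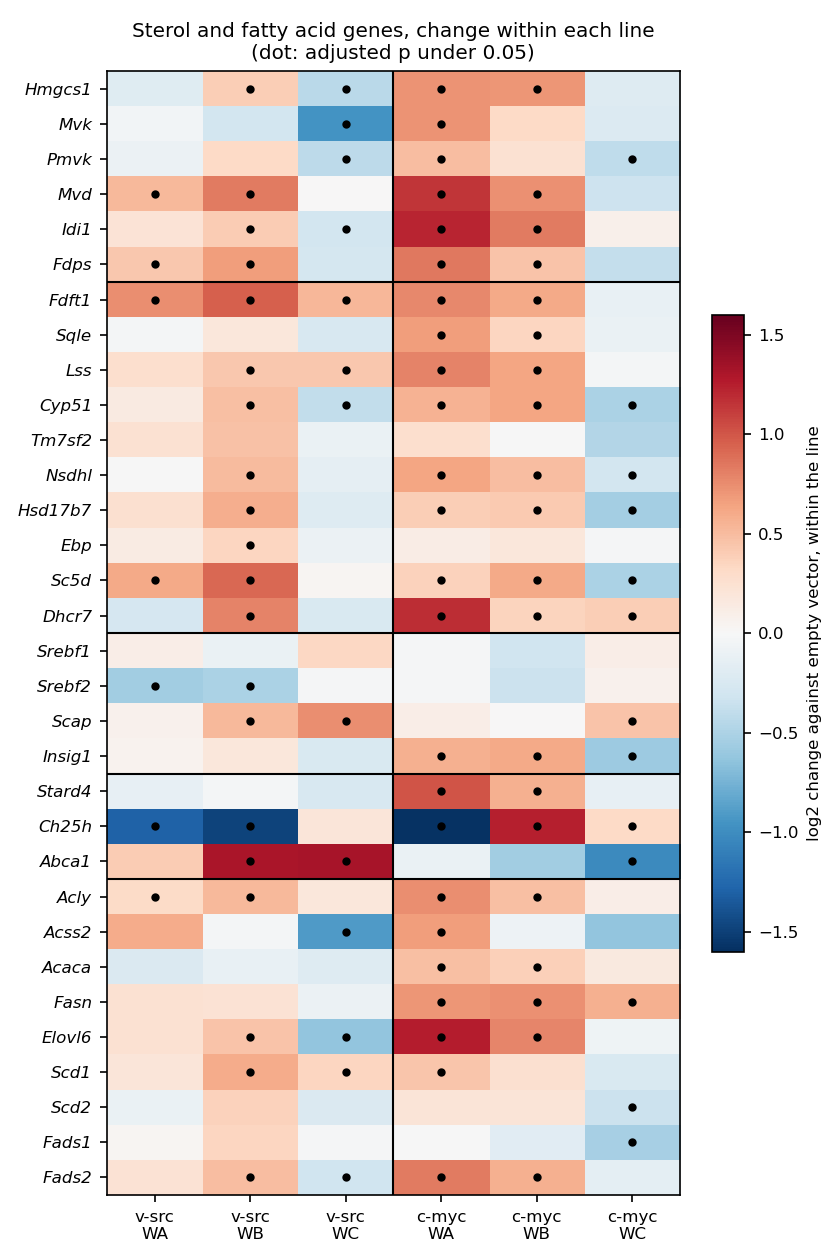
Heat map of the log2 change against the empty vector for each of the 32 genes (down the page, in order of role, with lines between roles) in v-src and c-myc cells of lines WA, WB and WC (across). Red is higher and blue is lower than the empty vector, and a dot marks an adjusted p under 0.05. With c-myc, WA and WB are mostly red (23 and 20 genes higher) and WC is mostly pale or blue (4 higher and 9 lower).

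In the mevalonate arm, c-myc raised all 6 measured genes in WA, 4 in WB and none in WC, where Pmvk fell. Of all genes, 19% (WA), 12.5% (WB) and 18.6% (WC) were higher, and 18.6% were lower in WC. The largest change was that of Idi1, the isomerase that makes the reactive isoprenoid unit. Its signals were 5745, 5896 and 4999 in WA c-myc cells, against 2325, 2129 and 2642 in WA empty-vector cells. They were 5147, 4881 and 4911 in WB c-myc cells, against 2989, 2639.9 and 2747 in WB empty-vector cells. In WC they were 3706, 3423 and 2971 in c-myc cells, against 2980.2, 3634 and 2970.0 in empty-vector cells. The c-myc arrays lay above all empty-vector arrays in WA and WB, and in WC the groups overlapped. In WA the change of Idi1 was 1.22 (SE 0.09, adjusted p = 5.40e-10), in WB 0.83 (SE 0.09, adjusted p = 7.44e-07) and in WC 0.08 (SE 0.09, adjusted p = 0.588), and the lines differed with an adjusted p of 6.77e-06. Over the lines Idi1 rose by 0.71 (SE 0.20, adjusted p = 0.0398) with c-myc, and without WC c-myc replicate 1 the adjusted p was 0.0516. The call also ended without line WA or WB, without the filter, without an intensity trend, with the mean of probe sets and without the 2 arrays that stood apart (adjusted p up to 0.222).

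Hmgcs1, which makes HMG-CoA and whose window holds the sterol element, had signals of 10079, 12691 and 12466 in WA c-myc cells, against 6681, 6493 and 8269.6 in WA empty-vector cells. In WB they were 11443, 11059 and 10196 in c-myc cells, against 6738, 6436 and 6818 in empty-vector cells. The c-myc arrays were higher without overlap in both lines. The changes were 0.72 (WA), 0.71 (WB) and -0.21 (WC), the last not called, and over the lines 0.41 (SE 0.19, adjusted p = 0.179), which was not called. With v-src, Hmgcs1 rose in WB by 0.39 and fell in WC by 0.43; its change in WA was -0.19. Leaving out any of 4 arrays ended the WB call, with an adjusted p of up to 0.142.

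Mvd, the decarboxylase of the arm, rose with c-myc by 1.14 in WA and 0.73 in WB, and with v-src by 0.52 in WA and 0.83 in WB. The v-src and empty-vector arrays of Mvd overlapped in WA but not in WB. Its changes in WC were 0.01 with v-src and -0.33 with c-myc. Fdps, which makes farnesyl diphosphate, rose with c-myc by 0.84 in WA and 0.45 in WB, and with v-src by 0.44 in WA and 0.67 in WB. Leaving out single arrays ended the Fdps calls with c-myc in WB (adjusted p up to 0.145) and with v-src in WA (up to 0.171). Mvk, mevalonate kinase, rose with c-myc in WA by 0.72 and fell with v-src in WC by 0.96. Pmvk, phosphomevalonate kinase, rose with c-myc in WA by 0.49 and fell in WC with v-src by 0.42 and with c-myc by 0.41. The 3 Pmvk calls each ended without single arrays, at adjusted p up to 0.0697, 0.102 and 0.260. Idi1 with v-src changed by 0.40 in WB and -0.29 in WC, and both calls ended without single arrays (up to 0.0688 and 0.156).

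**Figure D2:**
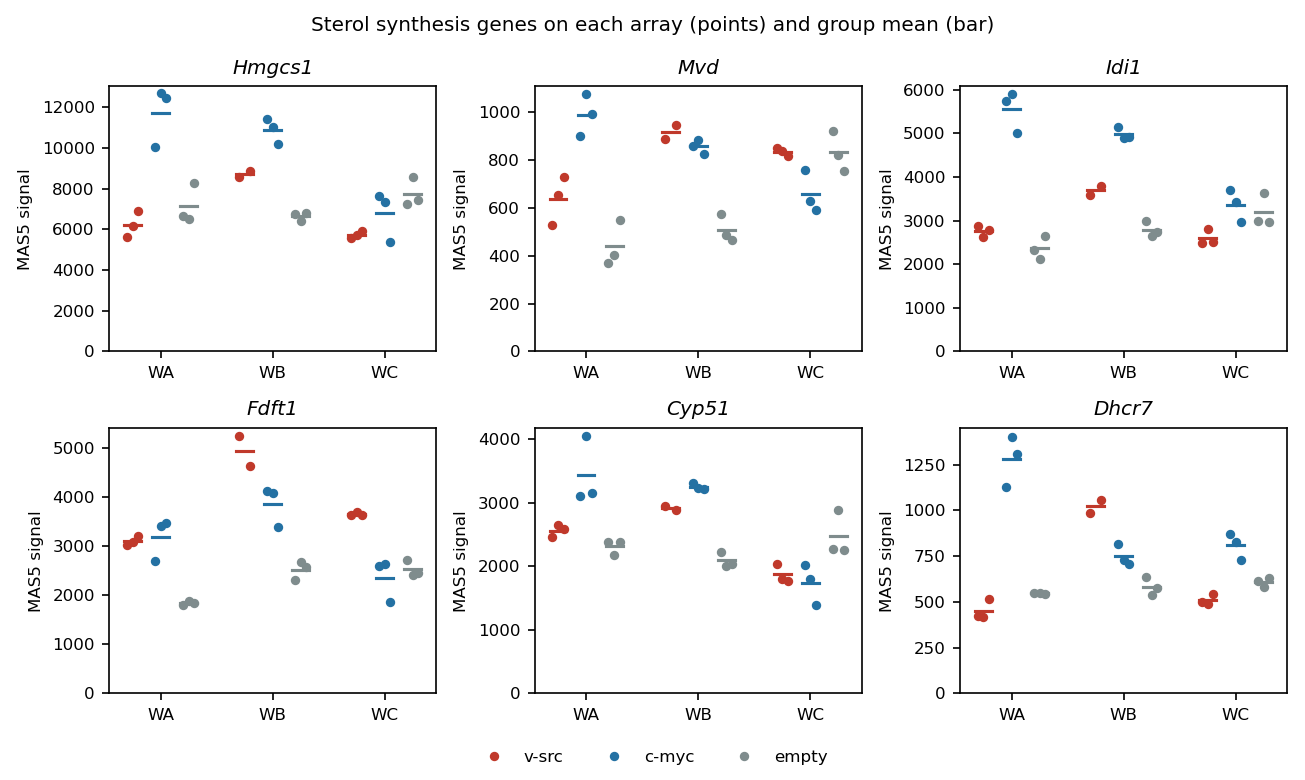
MAS5 signal of 6 sterol synthesis genes on each array (points; bar is the group mean), for lines WA, WB and WC from left to right and, within a line, v-src, c-myc and empty vector; the signal axis starts at 0. With c-myc, Idi1 lies between 4999 and 5896 in WA and between 4881 and 5147 in WB, above all empty-vector arrays of the line, and Fdft1 lies above the empty-vector arrays in all 3 lines with v-src.

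From squalene to cholesterol, c-myc raised 8 of 10 genes in WA and 8 in WB, and in WC 1 rose and 4 fell. Of all genes, 19% (WA), 12.5% (WB) and 18.6% (WC) were higher, and 18.6% were lower in WC. Fdft1, squalene synthase, was the gene that rose with v-src in each line and over the lines. Its signals were 3024, 3092 and 3202 in WA v-src cells, against 1794, 1891 and 1850.3 in WA empty-vector cells. In WB they were 5239 and 4635 in v-src cells, against 2318, 2684 and 2568 in empty-vector cells. WC signals were 3632, 3695 and 3645 in v-src cells, against 2721, 2413 and 2457 in empty-vector cells. The v-src arrays were above all empty-vector arrays in each line. The change over the lines was 0.75 (SE 0.16, adjusted p = 0.0243), with 0.74 (WA), 0.96 (WB) and 0.53 (WC). Its probe sets disagreed: a second one above the filter changed by 0.59, and 2 below the filter changed by -0.50 and -0.28 with v-src. Averaging the 4 probe sets gave an adjusted p of 0.520 over the lines, and the call also ended without line WA or WB. With c-myc, Fdft1 rose by 0.77 in WA and 0.61 in WB, with -0.12 in WC.

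Cyp51, the lanosterol demethylase, moved in opposite directions in WA and WC with c-myc. Its signals were 3111, 4047 and 3150.4 in WA c-myc cells, against 2377, 2184 and 2389.6 in WA empty-vector cells. In WC, Cyp51 signals were 2023, 1801 and 1391 in c-myc cells, against 2268, 2889 and 2265 in empty-vector cells. All c-myc arrays were higher in WA and all were lower in WC. The c-myc changes were 0.55 (WA), 0.63 (WB) and -0.51 (WC), each called, and the lines differed with an adjusted p of 2.65e-05. With v-src, Cyp51 rose in WB by 0.48 and fell in WC by 0.39, calls that ended without single arrays (adjusted p up to 0.0622 and 0.0980). Other probe sets of Cyp51 above the filter changed over the lines by 0.57 and 0.11 with c-myc, against 0.23 for the one kept. With v-src they changed by 0.20 and -0.43, against 0.08 for the one kept.

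Of the same enzymes, Nsdhl, Hsd17b7 and Sc5d also rose with c-myc in WA and WB and fell in WC. The values were, for Nsdhl, a demethylating dehydrogenase, 0.64 (WA), 0.49 (WB) and -0.30 (WC). For Hsd17b7, a sterol ketoreductase, they were 0.39 (WA), 0.42 (WB) and -0.54 (WC). For Sc5d, a sterol desaturase, they were 0.36 (WA), 0.60 (WB) and -0.50 (WC), and a second probe set of Sc5d changed by -0.24 with c-myc and -0.21 with v-src over the lines, against 0.15 and 0.51 for the one kept. The 3 genes also rose with v-src in WB, by 0.51, 0.59 and 0.91. The calls of Nsdhl in WC (up to 0.150) and Sc5d in WA (up to 0.0615) with c-myc ended without single arrays. Sc5d rose with v-src in WA as well, by 0.60.

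Dhcr7, the reductase of the last step to cholesterol, rose with c-myc in every line. Its signals were 1128, 1401 and 1308 in WA c-myc cells, against 551, 549.9 and 543 in WA empty-vector cells. In WC, Dhcr7 signals were 870.1, 827 and 728 in c-myc cells, against 612, 584 and 628 in empty-vector cells. The c-myc arrays were higher in both lines without overlap. The changes were 1.18 (WA), 0.35 (WB) and 0.39 (WC), and the lines differed with an adjusted p of 0.000335. Over the lines the change was 0.64 (SE 0.31, adjusted p = 0.180), not called. The WB call ended without single arrays (up to 0.0703). With v-src, Dhcr7 rose in WB, by 0.79, with -0.27 in WA and -0.24 in WC, and the lines differed (adjusted p = 3.91e-05).

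Of the other genes, Lss, lanosterol synthase, rose with c-myc in WA by 0.79 and in WB by 0.63, and with v-src in WB by 0.43 and in WC by 0.43. The v-src calls of Lss ended without single arrays (up to 0.118 in WB and 0.0959 in WC), and a second probe set of Lss above the filter changed by -0.27 with v-src over the lines, against 0.38 for the one kept. Sqle, the epoxidase that precedes it, rose with c-myc by 0.67 in WA and 0.35 in WB, the last ending without 1 array (adjusted p = 0.0911). Its v-src changes were not called. Ebp, a sterol isomerase, rose with v-src in WB by 0.34, a call that ended without single arrays (up to 0.149), and its c-myc changes of 0.12 (WA), 0.18 (WB) and -0.02 (WC) were not called. Tm7sf2, a sterol reductase with a mean signal of 318 over all arrays, was not called. Its v-src changes were 0.25 (WA), 0.46 (WB) and -0.10 (WC), and its c-myc changes were 0.27 (WA), -0.01 (WB) and -0.47 (WC).

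Among the 4 SREBP regulators, c-myc raised 1 in WA and 1 in WB, and raised 1 and lowered 1 in WC. Of all genes, 19% (WA), 12.5% (WB) and 18.6% (WC) were higher and 18.5%, 14.5% and 18.6% lower. A group of 4 genes is too small to compare with these shares. Insig1, itself a known SREBP target, had signals of 1578, 1859.9 and 1739 in WA c-myc cells, against 1093, 1120.1 and 1240.3 in WA empty-vector cells. In WB they were 1503, 1381 and 1252 in c-myc cells, against 894, 878 and 924 in empty-vector cells. In WC they were 609.8, 661 and 587 in c-myc cells, against 928, 974 and 902 in empty-vector cells. The c-myc arrays were higher in WA and WB and lower in WC, without overlap in any line. The changes were 0.57 (WA), 0.60 (WB) and -0.58 (WC), and the lines differed (adjusted p = 2.81e-06). The v-src changes of Insig1, 0.05 (WA), 0.18 (WB) and -0.25 (WC), were not called.

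Srebf2, which codes for the SREBP of sterol synthesis, fell with v-src by 0.56 in WA and 0.51 in WB, with a change of -0.02 in WC. The WB call ended without single arrays (up to 0.128), and a second probe set of Srebf2 changed by 0.03 with v-src over the lines, against -0.36 for the one kept. Scap, the escort of SREBP, rose with v-src by 0.52 in WB and 0.75 in WC, and with c-myc by 0.46 in WC. A Scap probe set below the filter changed by -0.45 with v-src over the lines. The WB call of Scap ended without 1 array (adjusted p = 0.0630). Srebf1, which codes for the SREBP tied more to fatty acid genes, was not called, with v-src changes of 0.10 (WA), -0.10 (WB) and 0.33 (WC) and c-myc changes of -0.02 (WA), -0.32 (WB) and 0.11 (WC).

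**Figure D3:**
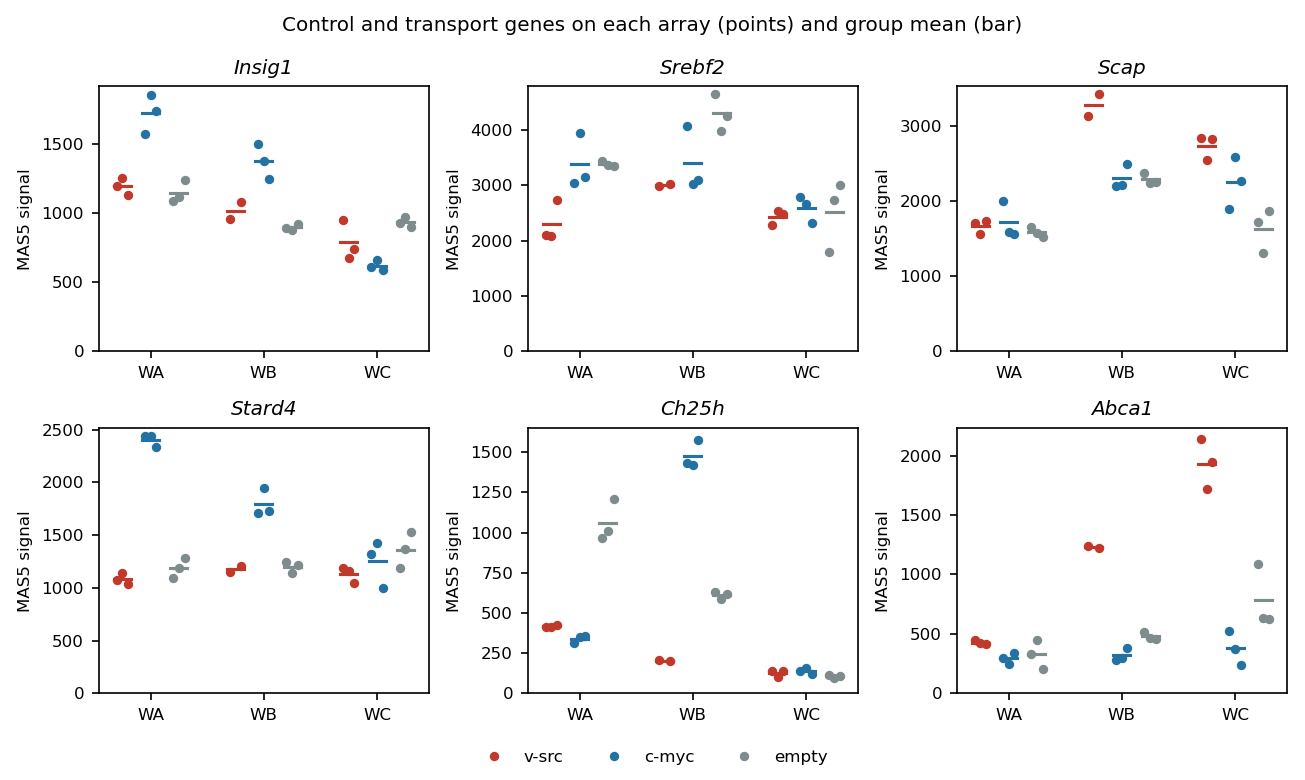
MAS5 signal of Insig1, Srebf2, Scap, Stard4, Ch25h and Abca1 on each array (points; bar is the group mean), by line from left to right and, within a line, v-src, c-myc and empty vector; the signal axis starts at 0. Ch25h is high with the empty vector in WA and with c-myc in WB, and lies between 98.2 and 156 on all WC arrays; Abca1 is highest with v-src in WB and WC.

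Stard4, a carrier of sterol between membranes, rose with c-myc by 1.00 in WA and 0.57 in WB, with a change of -0.13 in WC. Its signals were 2436, 2443 and 2333 in WA c-myc cells, against 1090.3, 1189.9 and 1287 in WA empty-vector cells. With v-src its changes were -0.13 (WA), -0.03 (WB) and -0.26 (WC), none called. A second probe set of Stard4 changed by 0.26 with v-src over the lines, against -0.14 for the one kept.

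Ch25h, which makes 25-hydroxycholesterol, an oxysterol that holds SREBP back, had the largest change of the 32 genes within WA with c-myc, and its direction differed between lines. Its signals were 412, 416 and 422 in v-src, 311, 353 and 355 in c-myc and 965, 1008 and 1209 in empty-vector cells of WA. In WB they were 206 and 203 in v-src, 1430.4, 1422 and 1576 in c-myc and 633, 587 and 617 in empty-vector cells. In WC they were 137, 100.2 and 137 in v-src, 138, 156 and 121 in c-myc and 112, 98.2 and 107 in empty-vector cells. Both oncogenes lowered Ch25h in WA, v-src lowered it and c-myc raised it in WB, and WC had low signals throughout. The v-src changes were -1.29 (WA), -1.48 (WB) and 0.19 (WC), and the c-myc changes were -1.58 (WA), 1.24 (WB) and 0.32 (WC). The lines differed with an adjusted p of 9.15e-07 for v-src and 1.40e-09 for c-myc. The small rise with c-myc in WC ended when any 1 of 18 arrays was left out (adjusted p up to 0.193).

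Abca1, the pump that exports cholesterol and a known target of the oxysterol receptor LXR, rose with v-src in WB and WC. Its signals were 1238 and 1222 in WB v-src cells, against 519.7, 469.6 and 459 in WB empty-vector cells. In WC, Abca1 signals were 2135, 1716 and 1947 in v-src cells, against 1086, 637 and 623 in empty-vector cells. The v-src arrays were higher without overlap in both lines. The v-src changes were 0.41 (WA), 1.31 (WB) and 1.32 (WC), the one in WA not called, and over the lines 1.01 (SE 0.30, adjusted p = 0.0600), not called. With c-myc it fell in WC by 1.02, with -0.11 in WA and -0.56 in WB. A second probe set of Abca1 above the filter changed by -0.02 with c-myc over the lines, against -0.56 for the one kept. One below the filter changed by -0.39.

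In the fatty acid group, c-myc raised 7 of 9 genes in WA, 5 in WB and 1 in WC, where Scd2 and Fads1 fell. Of all genes, 19% (WA), 12.5% (WB) and 18.6% (WC) were higher, and 18.6% were lower in WC. Fasn, the fatty acid synthase, rose with c-myc in each line. Its signals were 5341, 4723 and 4936 in WA c-myc cells, against 2708, 3003 and 3473 in WA empty-vector cells. In WB they were 3490.3, 4059 and 3443 in c-myc cells, against 2132, 2302 and 2173 in empty-vector cells. WC signals were 3254, 3854 and 3819 in c-myc cells, against 2552, 2172 and 2618 in empty-vector cells. All c-myc arrays were above the empty-vector arrays of their line. Over the lines Fasn rose by 0.67 (SE 0.09, adjusted p = 0.00468), with 0.71 (WA), 0.73 (WB) and 0.57 (WC), and the difference between lines was not called (adjusted p = 0.702). Without line WA the adjusted p over the lines was 0.0511. With v-src its changes were 0.25 (WA), 0.24 (WB) and -0.09 (WC), none called.

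Acly, which makes cytosolic acetyl-CoA from citrate, rose with c-myc over the lines by 0.44 (SE 0.13, adjusted p = 0.0444), with 0.75 (WA), 0.48 (WB) and 0.11 (WC). The call over the lines ended without WC empty replicate 3 (adjusted p = 0.0714) or WC c-myc replicate 1, without any 1 line, without the filter, without an intensity trend, with the mean of probe sets and without the 2 arrays that stood apart (up to 0.203). With v-src, Acly rose by 0.30 in WA and 0.51 in WB. Elovl6, which lengthens saturated fatty acids, rose with c-myc by 1.25 in WA and 0.78 in WB, with -0.07 in WC. With v-src, Elovl6 rose by 0.45 in WB and fell by 0.63 in WC (lines differed, adjusted p = 7.46e-05), and the WB call ended without 1 array (adjusted p = 0.0529).

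**Figure D4:**
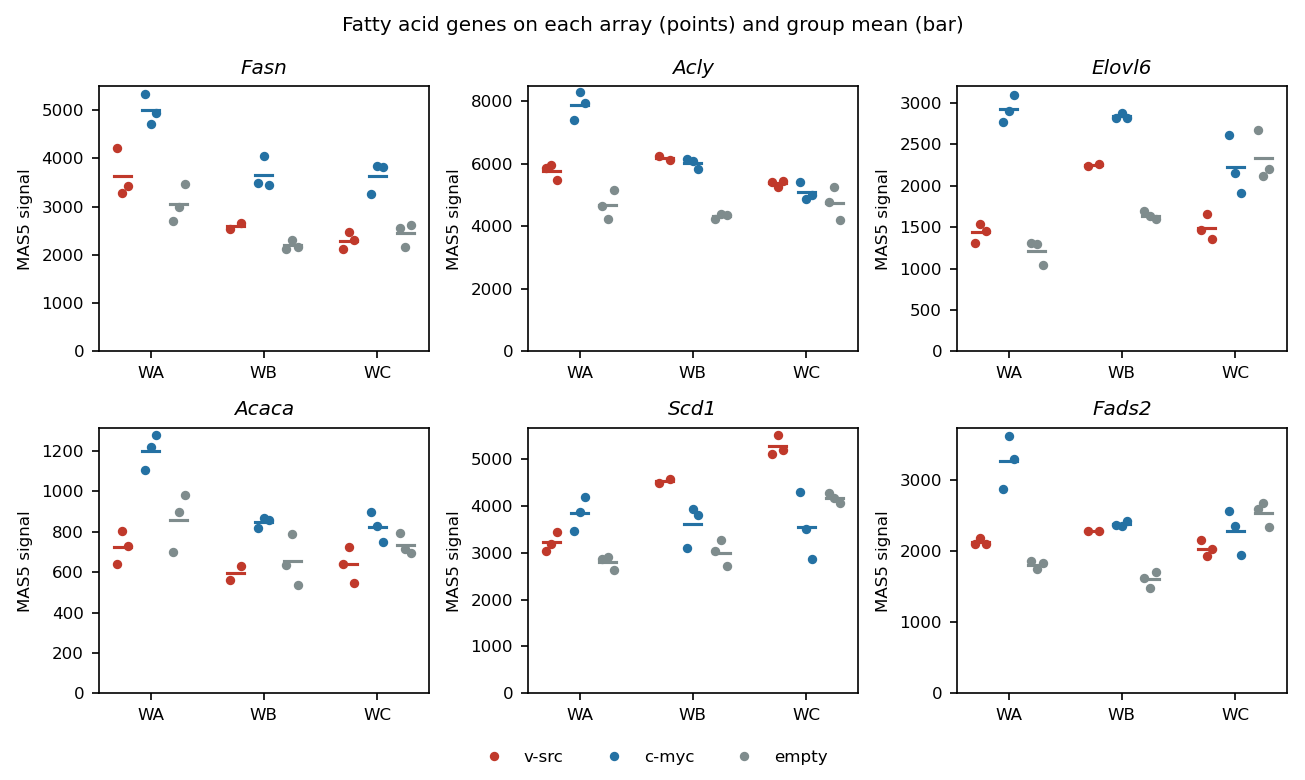
MAS5 signal of 6 fatty acid genes on each array (points; bar is the group mean), by line from left to right and, within a line, v-src, c-myc and empty vector; the signal axis starts at 0. Fasn is highest with c-myc in all 3 lines, and Elovl6 and Fads2 are highest with c-myc in WA and WB, while in WC their c-myc and empty-vector arrays overlap.

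Acaca, which makes malonyl-CoA, rose with c-myc by 0.48 in WA and 0.38 in WB, calls that ended without single arrays (up to 0.0615 and 0.233). Fads2, a desaturase of polyunsaturated fatty acids, rose with c-myc by 0.84 in WA and 0.56 in WB. With v-src, Fads2 rose by 0.50 in WB and fell by 0.31 in WC, and the WC call ended without 1 array (adjusted p = 0.0507). Scd1, the stearoyl-CoA desaturase, rose with c-myc in WA by 0.45 and with v-src by 0.59 in WB and 0.34 in WC, the last ending without single arrays (up to 0.0789). Scd2, a related desaturase, fell with c-myc in WC by 0.34 and Fads1 fell there by 0.53; both ended without single arrays (up to 0.318 and 0.124), and neither was called with v-src in any line. Acss2, which activates acetate, had a mean signal of 185 over all arrays. It rose with c-myc in WA by 0.66 and fell with v-src in WC by 0.91. Both calls ended without single arrays (up to 0.198 and 0.0533). Fabp4, named above as an adipocyte marker, had its highest mean in WB v-src cells. Lpl, another marker of that list, averaged less there than in WB c-myc or empty-vector cells. With v-src, Scd1 rose in WB and WC, and Fads2 rose in WB and fell in WC. With c-myc, both rose in WA, and Fads2 also rose in WB. The part of these markers in the values was not tested.

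Between the oncogenes over the lines, v-src cells had more of 1 gene and less of 3, against 11.9% higher and 13.7% lower among all genes. Within lines the counts were larger. In WA, none of the 32 was higher in v-src than in c-myc cells and 20 were lower, against 18.2% and 20.9% of all genes. In WB, 6 were higher and 8 lower, against 15.4% and 15.6%. In WC, 9 were higher and 6 lower, against 17.8% and 22.3%. Whether these counts differ between lines was not tested. Abca1 was higher in v-src than in c-myc cells by 1.58 (SE 0.30, adjusted p = 0.00825), with 0.51 (WA), 1.87 (WB) and 2.34 (WC). Its signals in WA were 447, 422 and 411 in v-src cells and 298, 244 and 341 in c-myc cells. Lower in v-src cells was Mvk, with a change of -0.71 (SE 0.19, adjusted p = 0.0289) and -0.76 (WA), -0.62 (WB) and -0.74 (WC) by line. Its signals in WB were 486 and 474 in v-src cells and 692, 809 and 752 in c-myc cells, without overlap. Acaca changed by -0.53 (SE 0.11, adjusted p = 0.0129), with -0.72 (WA), -0.49 (WB) and -0.36 (WC). Fasn changed by -0.54 (SE 0.09, adjusted p = 0.00572), with -0.46 (WA), -0.49 (WB) and -0.66 (WC). A second probe set of Abca1 changed by 0.67 in this comparison. Leaving out a line ended the calls of Mvk and Acaca whichever line it was, and that of Abca1 without WB or WC, but not that of Fasn. The call of Mvk also ended without the 2 arrays that stood apart (adjusted p = 0.0599).

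**Figure D5:**
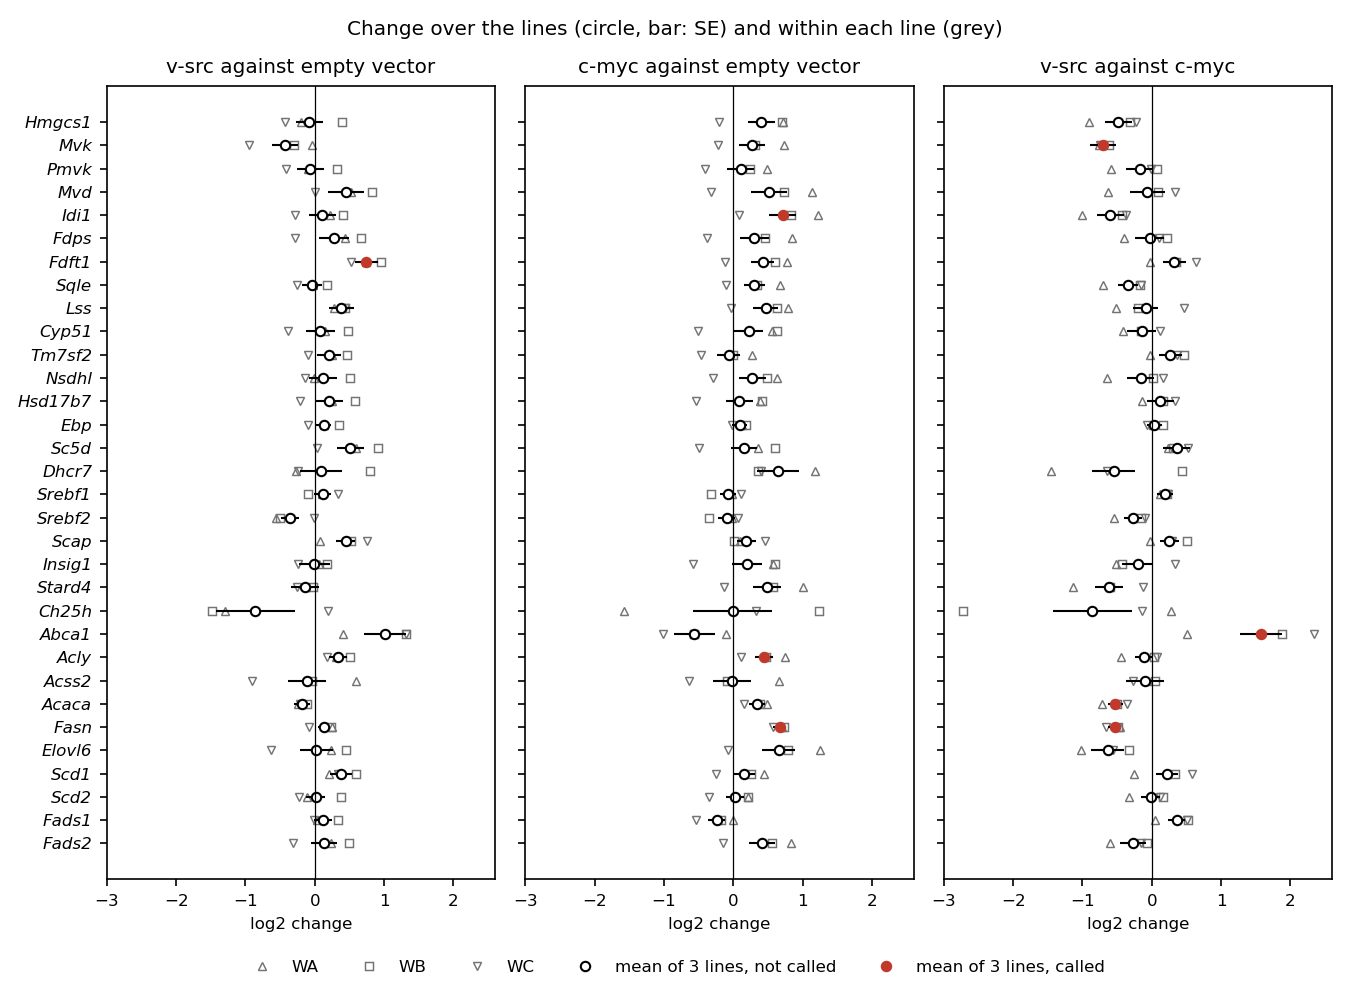
Log2 change of each of the 32 genes over the lines (circle, with SE bar; red where called) and within WA, WB and WC (grey triangle up, square and triangle down), for v-src against empty vector, c-myc against empty vector and v-src against c-myc. In the middle panel the WC point lies to the left of WA and WB for most genes, and Idi1, Acly and Fasn are called.

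The lines also differed with the empty vector: an F test called 22 of 32 genes, against 44.9% of all genes, and 8 of the 22 calls ended without some single array. Ch25h was higher in WA than in WC by 3.07 and in WB than in WC by 2.30. Lower in WA than in WC with the empty vector were, among others, Mvd (-0.90), Elovl6 (-0.92), Mvk (-0.59), Fads2 (-0.48) and Idi1 (-0.43). For Elovl6, signals were 1314, 1297 and 1042 in WA and 2673, 2123 and 2199 in WC empty-vector cells. Of the 32 genes, 4 were higher and 10 lower in WA than in WC, against 14.7% and 15.1% of all genes. In WB, 4 were higher and 14 lower than in WC, against 16.5% and 16% of all genes. These baseline values use the same empty-vector arrays as the changes above, so they are given side by side and not as a relation.

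A further list of 50 genes of sterol and fatty acid handling, chosen with earlier results of these data known, had 37 genes tested. With v-src, 8 rose and 7 fell over the lines, against 6.64% higher and 6.79% lower among all genes. Nceh1, a cholesteryl ester hydrolase, rose by 1.51 (SE 0.31, adjusted p = 0.0189), Acsl4, an acyl-CoA synthetase, by 1.20 (SE 0.09, adjusted p = 0.000793), Abcg1, a sterol exporter, by 1.17 (SE 0.23, adjusted p = 0.0156), and Npc1, a lysosomal sterol carrier, by 0.87 (SE 0.20, adjusted p = 0.0283). Me1, malic enzyme, and Lipa, lysosomal acid lipase, changed by -0.76 (SE 0.10, adjusted p = 0.00361) and -0.65 (SE 0.14, adjusted p = 0.0251). With v-src, the call of Nceh1 ended without line WA (adjusted p = 0.0811), that of Abcg1 without WA or WC or with the mean of probe sets (up to 0.114), that of Npc1 without WB or WC (up to 0.141) and that of Lipa without WA or WB (up to 0.165). Those of Acsl4 and Me1 held in all 39 settings. With c-myc, 3 rose and 5 fell, shares close to the 10% higher and 9.76% lower among all genes. Fads3, of the desaturase family, changed by -1.03 (SE 0.11, adjusted p = 0.00293) and Erlin2, which acts in the degradation of sterol enzymes, by -0.56 (SE 0.12, adjusted p = 0.0151). Abcg1, Acsl3 and Scarb1 rose by 0.96, 0.65 and 0.48, and Lipa changed by -0.55. With c-myc, the call of Acsl3 ended in 8 settings, among them any 1 line or WC c-myc replicate 1 left out (up to 0.177). That of Scarb1 ended without any 1 line (up to 0.0887), that of Lipa without any 1 line or without an intensity trend (up to 0.182), that of Abcg1 without WA or WC or with the mean of probe sets (up to 0.154), and that of Erlin2 without WA or WC (up to 0.138). That of Fads3 held in all 39 settings. Between v-src and c-myc cells, 7 were higher and 3 lower, against 11.9% and 13.7% of all genes, with Nceh1 (1.72), Npc1 (1.27), Acsl4 (1.18), Cyp7b1 (1.12), which hydroxylates oxysterols, Me1 (-0.76) and Npc2 (0.74) largest in size. Of these 6, the call of Cyp7b1 ended without WA or WC or with the mean of probe sets (up to 0.116), and the others held in all 39 settings. The median of the 37 changes was 0.08 with v-src and -0.08 with c-myc.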

How the data were processed

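Expression was measured on 26 arrays of immortalized mouse embryonic fibroblasts. Per the submitters' processing notes, the signals were computed with MAS5; the deposited values are linear intensity, 1 per array for 45101 probe sets, and the MAS5 version is not given in the sources used here. All arrays had a mean of 500 once 2% was trimmed from either end. No further normalization between arrays was applied. Names came from the array annotation: 34945 had 1 gene, 932 several, 9211 were unlisted and 64 were controls, and gene IDs of 34741 were found in the RefSeq table of assembly GRCm38.p6. Probe sets at or under the 40th percentile of mean log2 were left out, and the one with the highest mean stood for each gene. The log2 values were computed from the deposited intensity plus 23, the 20th percentile of all values, so a fold understates the change of low signals. The tests were run in limma 3.58.1 (R 4.3.3), with a variance trend on intensity and Benjamini-Hochberg adjustment over 13018 genes. Over the lines, arrays of a line and vector were averaged and the 9 averages fitted on vector and line, with 4 residual degrees of freedom and 3.87 prior ones, so a gene has 1 SE for all these comparisons. Within and between lines, the fit had 9 group means over the 26 arrays, with 17 residual degrees of freedom and 6.20 prior ones. The scripts were tested on simulated data. All 33 genes are described; of the further list, at most 6 called per comparison are named. The genes, lists and promoter motifs were chosen with earlier results of these data known. No per-sample column was left unused (0). Alternatives tried were the pseudocount (1 and 100), filter, probe set rule, quantile normalization, variance trend, averaging, replicate block and each array or line left out.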

Additional observations from a re-analysis of the deposited data

Results flagged for a closer look

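The difference between the 3 lines in the response to an oncogene was itself tested, with an F test in limma on the 26 arrays, and the genes past an adjusted p of 0.05 are given here with that p. For v-src, the response of 15 genes differed between lines: Hmgcs1 (0.00565), Mvk (0.0352), Mvd (0.0171), Idi1 (0.00293), Fdps (0.0137), Cyp51 (0.00305), Nsdhl (0.00771), Hsd17b7 (0.00282), Sc5d (0.00159), Dhcr7 (3.91e-05), Scap (0.0170), Ch25h (9.15e-07), Acss2 (0.0174), Elovl6 (7.46e-05) and Fads2 (0.000444). For Hmgcs1, Idi1, Cyp51, Elovl6 and Fads2, v-src cells were higher in WB and lower in WC. The changes not given above were, for Mvk, -0.04 (WA), -0.30 (WB) and -0.96 (WC), for Acss2 0.60 (WA), -0.04 (WB) and -0.91 (WC), for Nsdhl -0.01 (WA), 0.51 (WB) and -0.14 (WC) and for Hsd17b7 0.25 (WA), 0.59 (WB) and -0.21 (WC). In WA the changes of Idi1, Cyp51, Elovl6, Fads2 and Scap were 0.22, 0.14, 0.24, 0.23 and 0.07, none called, and in WC those of Fdps and Sc5d were -0.28 and 0.03, not called. Without 1 array, the calls of Mvk, Fdps, Mvd, Nsdhl and Scap ended, with adjusted p up to 0.119, 0.0514, 0.0591, 0.0727 and 0.0523.

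For c-myc, the response of 23 genes differed between lines: Hmgcs1 (0.000303), Mvk (0.0297), Pmvk (0.00725), Mvd (1.99e-05), Idi1 (6.77e-06), Fdps (0.00116), Fdft1 (0.000651), Sqle (0.00214), Lss (0.00343), Cyp51 (2.65e-05), Nsdhl (7.01e-05), Hsd17b7 (5.77e-05), Sc5d (5.77e-05), Dhcr7 (0.000335), Insig1 (2.81e-06), Stard4 (4.27e-05), Ch25h (1.40e-09), Acly (0.000696), Acss2 (0.0387), Elovl6 (6.12e-06), Scd1 (0.00719), Scd2 (0.0443) and Fads2 (2.05e-05). In WA and WB most of these were higher with c-myc, and in WC they were lower or not called, except Dhcr7 and Ch25h, which rose there. Ch25h fell in WA. Without 1 array, the calls of Acss2, Mvk and Scd2 ended, with adjusted p up to 0.101, 0.0889 and 0.170. These p-values rest on the spread between arrays of one line and vector, and groups of 3 arrays are too small to test for a single array that stands apart.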

How the results depend on the processing

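Counts of genes called over the lines (1 with v-src, 3 with c-myc, 4 between them) depend on how arrays were averaged. With all arrays as separate values they were 10 (8 higher, 2 lower), 15 (14 higher, 1 lower) and 16 (5 higher, 11 lower). With each group of arrays as a random block they were 8, 13 and 12. With all arrays and the replicate block they were 10, 14 and 16. Separate values and the replicate block treat arrays of one line and vector as independent, and the random block uses 1 correlation for all genes. Leaving out line WA gave 0 with c-myc and 2 between the oncogenes, leaving out WB gave 0 with v-src, 1 with c-myc and 2 between them, and leaving out WC gave 2 with v-src. Without the filter, or without an intensity trend, 1 was called with c-myc. The mean of all probe sets of a gene, which includes weak ones, gave 0 with v-src over the lines, 12 in WB (20 otherwise) and 7 in WC (13 otherwise) with v-src. With each array left out in turn, the counts ranged from 1 to 3 for v-src and from 1 to 3 for c-myc over the lines, from 6 to 11 for v-src in WA, from 13 to 21 for v-src in WB and from 8 to 19 for c-myc in WC. An alternative chosen after seeing the data left out WA empty replicate 3, of lowest median signal, and WC c-myc replicate 1, of lowest correlation with its group. It gave 1 with c-myc over the lines and 20 (3 higher, 17 lower) with c-myc in WC. The cause of these shifts was not tested. Fits with fewer arrays or lines also have fewer degrees of freedom, and the part of that was not tested either. The replicate block within lines changed no count by more than 1.5 times. Replicate numbers do not pair the arrays: same-numbered arrays deviated together with r between -0.18 and 0.21, and 1 of 26 arrays correlated best with its own number. No called value turned its sign over the lines. Uncalled ones did under some setting, for 15 genes with v-src, 11 with c-myc and 11 between them; the mean of probe sets turned Cyp51 (-0.05), Fdps (-0.07), Stard4 (0.04) and Scap (close to 0) with v-src. Of called values within lines, the mean of probe sets turned Fdft1 and Fdps with v-src in WA and Lss with v-src in WC.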

Other observations

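The adipocyte markers varied between lines as well as vectors. Fabp4 averaged 175 in v-src, 21.9 in c-myc and 44.1 in empty-vector cells of WA, and 601 in v-src, 231 in c-myc and 244 in empty-vector cells of WC. Lpl, lipoprotein lipase, averaged 961 in v-src, 1397 in c-myc and 1139.7 in empty-vector cells of WB, and at most 57.4 in WC. Cebpa, a transcription factor of fat cells, averaged 438 in v-src, 751 in c-myc and 470.0 in empty-vector cells of WC. These are single genes without a test here.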
